A study of Homo sapiens with 6 samples.

Results

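Transcripts of 9 genes that bring cholesterol into the cell, move and store it, or send it out were followed in NCI-H295A cells kept with 8-Br-cAMP and in untreated control cells. The genes were SCARB1, NPC1, NPC2, LIPA, SOAT1, LIPE, ABCA1, ABCG1 and APOE, taken with every probe set whose platform annotation names that gene alone. These are 9 of the 11963 genes on the array that a probe set names alone, with 18 of the 22215 probe sets analysed. Of the 18, 11 probe sets of 8 genes lay above the filter on low signal and were tested. Both LIPE probe sets lay below it. A probe set is a group of short array probes that together report 1 transcript. The filter removed probe sets whose mean log2 signal over the 6 arrays was in the lowest 40 percent. It left those with a geometric mean signal above 45.5, and single arrays of a kept probe set can lie below that. Where a gene has several probe sets they are ordered here by mean signal and called the first, the second and the third.

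The series holds 6 arrays of total RNA, 3 from plates that had 8-Br-cAMP at 1 mM over 18 h and 3 from control plates without it, numbered 1 to 3 in each group. NCI-H295A is a line derived from an adrenocortical carcinoma that makes steroids, and 8-Br-cAMP enters cells and acts like cAMP, the messenger made when ACTH reaches its receptor. No vehicle is named for the controls, and all plates had insulin and selenium in a medium with fetal calf serum. As a single tumour line it lacks the other cells of the gland. In bulk RNA of this kind, fewer cells of a type and less RNA per cell cannot be told apart. The study's design text speaks both of 3 plates and of 3 separate experiments and ties neither to the sample numbers. If the plates were not separate cultures, the spread behind each p-value is that of these arrays and may be technical.

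Steroid-producing adrenal cells need a steady supply of cholesterol. They take its esters from lipoproteins at the cell surface, SCARB1 being the receptor for selective uptake from high-density lipoprotein, or by endocytosis of whole particles, whose esters are cleaved in lysosomes by the acid lipase LIPA and whose free cholesterol leaves through NPC2 and NPC1. SOAT1 turns free cholesterol back into esters for lipid droplets, the hormone-sensitive lipase LIPE releases it again, and ABCA1, ABCG1 and the apolipoprotein APOE carry cholesterol out of cells. Background of this kind comes from general knowledge and not from these arrays.

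The number 1 arrays stood apart in both groups. The 3'/5' signal ratio of the actin control, which is higher where RNA or cDNA is shortened, was 38.8 on 8-Br-cAMP 1 and 5.72 on control 1, and 1.93 to 2.41 on the remaining 4 arrays. Over the probe sets above the filter the correlation of log2 signal was 0.980 for 8-Br-cAMP 2 with 3 and 0.961 for control 2 with 3. It was 0.776 to 0.833 for a number 1 array with the others of its own group. The members were therefore fitted over all 6 arrays, without and with a replicate block on the sample number, and again over the 4 arrays numbered 2 and 3. The block sets number 1 apart from 2 and 3, but the arrays do not show that 2 belongs with 2 or 3 with 3. The last fit rests on 2 closely alike arrays a group. The part of RNA quality in the results was not tested. All 7 adrenocortical markers looked at (STAR, CYP11A1, CYP17A1, HSD3B2, NR5A1, MC2R, FDX1) lay above the filter, MC2R with 4 of 6 arrays over the filter signal. Of 6 measured markers of other cell types, PTPRC, ALB, CHGA and TH lay below the filter, while PECAM1 and VWF lay above it. The summed signal of these 6 markers was 356.6 to 480.7 after 8-Br-cAMP and 163.6 to 250.5 in controls, with VWF at 224.5 to 292.3 after 8-Br-cAMP and 13.2 to 123.8 in controls. Their part in the results was not tested.

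Of the 11 tested probe sets, 2 rose with 8-Br-cAMP when the sample number was a replicate block, both of SCARB1, and 0 fell. In that fit 3.21% of all 13329 tested probe sets passed, 1.55% as higher and 1.66% as lower (limma, adjusted p under 0.05). Without the block 0 of the 11 passed, against 0% of all probe sets. Before adjustment, limma's p was then under 0.05 for 3 of the 11, namely both of SCARB1 and the first of NPC1, and for 1474 of 13329 (11.1%). After adjustment an unmoderated test called 1 of 13329, which is not among these 11. In the 4 arrays numbered 2 and 3, 6 of the 11 passed as higher and 2 as lower, against 12.1% and 18.7% of all probe sets (30.8% in either direction). The passing genes were SCARB1, NPC1, NPC2, SOAT1 and LIPA on the higher side and ABCG1 on the lower side, while ABCA1 and APOE did not pass.

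**Figure D1:**
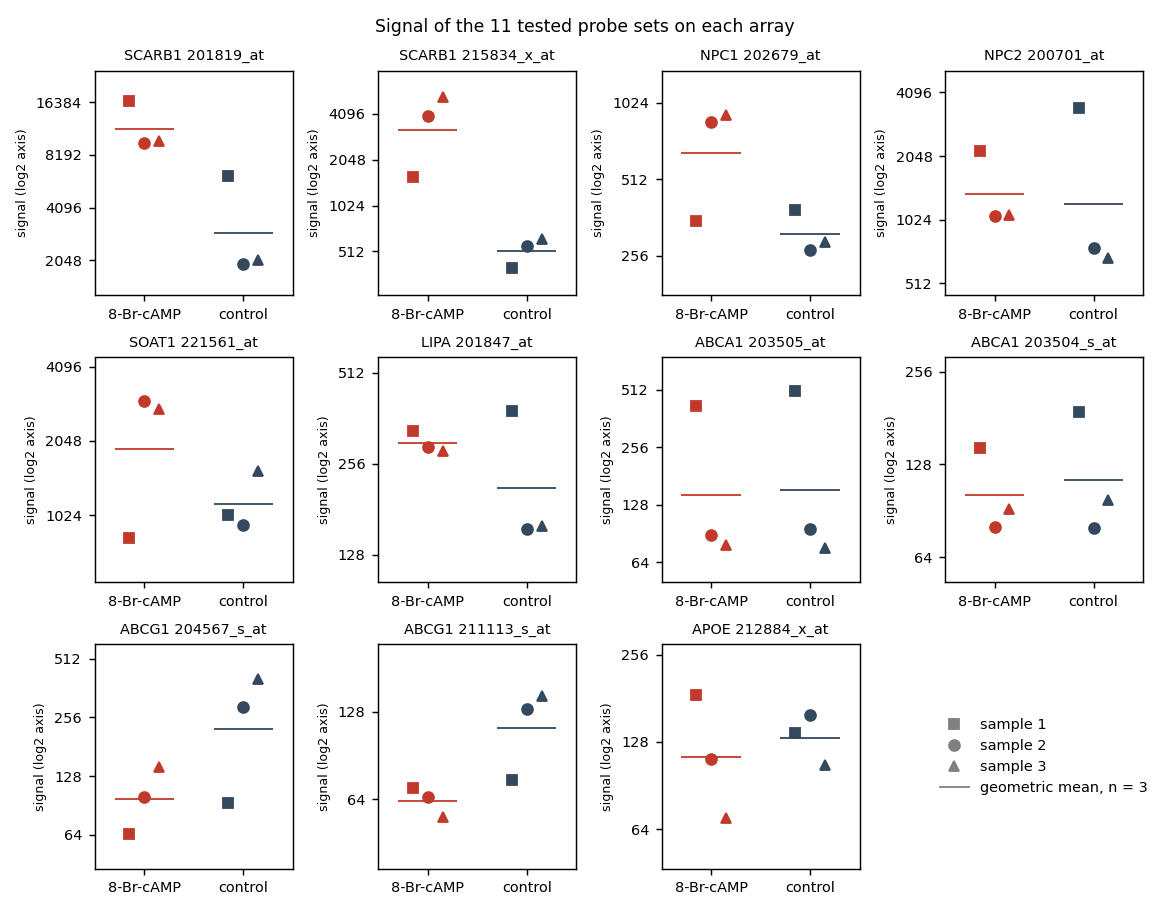
Signal of each tested probe set on the 3 8-Br-cAMP arrays (left, red) and the 3 control arrays (right, dark), on a log2 axis that differs between panels, with the symbol giving the sample number and the line the geometric mean of 3. The rank of a gene's probe sets by mean signal runs from left to right. Both SCARB1 panels show groups that do not overlap, and in most other panels the square of sample 1 lies away from samples 2 and 3.

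SCARB1 had 3 probe sets. The first gave signals of 16587.8, 9529.1 and 9843.4 on 8-Br-cAMP arrays 1 to 3, against 6235.7, 1938.8 and 2039.3 on controls 1 to 3. The groups did not overlap, as in 6.02% of all probe sets on the higher side, and number 1 was the highest array of each group. Array 1 gave 1.71 times the mean of arrays 2 and 3 after 8-Br-cAMP and 3.14 times that mean in controls. Its log2 signal averaged 13.50 ± 0.45 after 8-Br-cAMP and 11.51 ± 0.95 in controls (SD, n = 3 each), a difference of 1.99, or 3.98-fold. With the replicate block the SE was 0.22, the 95% interval 1.46 to 2.53 and limma's adjusted p = 0.0142, while without the block the SE was 0.49 and the adjusted p = 0.189. With the block but no intensity trend in limma the adjusted p was 0.0550.

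The second SCARB1 probe set, whose suffix (x_at) marks probes that may also match other transcripts, gave 1574.3, 3976.2 and 5251.8 after 8-Br-cAMP, against 396.5, 552.4 and 617.3 in controls. The groups again did not overlap, but here number 1 was the lowest array of each group. The log2 difference was 2.64, or 6.24-fold (SE 0.25 and adjusted p = 0.0109 with the replicate block, adjusted p = 0.107 without it, limma). In the 3 same-numbered pairs the first probe set was 2.66-fold, 4.91-fold and 4.83-fold higher, and the second 3.97-fold, 7.20-fold and 8.51-fold higher, so on both the smallest difference was that of pair 1. Without the number 1 arrays the log2 differences were 2.28 and 2.97. Of all tested probe sets 7.24%, 6.59% and 5.51% were at least 2-fold higher in pairs 1, 2 and 3. Both also met the selection named in the study's design, a fold of 2 or more and a p below 0.05, taken here as an unmoderated test before adjustment because no test is named, as did 1.67% of all probe sets on the higher side. The third SCARB1 probe set lay below the filter with 83.8, 27.4 and 22.8 after 8-Br-cAMP, against 50.4, 2.8 and 18.6 in controls, which overlap. By log2 difference the first SCARB1 probe set stood 64th among 7927 tested genes, each at 1 probe set.

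**Figure D2:**
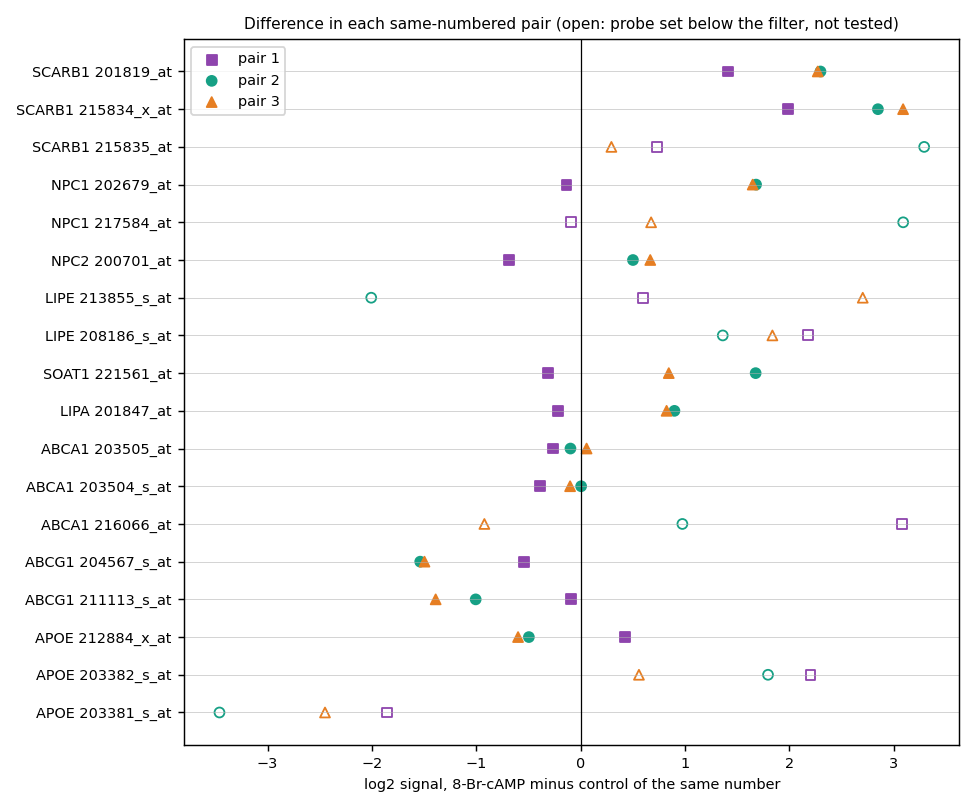
Log2 difference, 8-Br-cAMP minus control of the same sample number, for all 18 probe sets of the 9 genes, ordered by mean signal within a gene, with filled symbols for tested probe sets and open ones for those below the filter. The 2 tested SCARB1 probe sets lie to the right of 0 in all 3 pairs and the 2 ABCG1 probe sets to the left, while the tested probe sets of NPC1, NPC2, SOAT1 and LIPA lie right of 0 in pairs 2 and 3 and left of it in pair 1.

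Promoters are shown here for the tested members with a single listed start, NPC1, SOAT1 and ABCA1. NPC1 and SOAT1, like NPC2 and LIPA, were higher in pairs 2 and 3 but not in pair 1, while ABCA1 differed little. Pair 1 holds the arrays with actin ratios of 38.8 (treated) and 5.72 (control), against 1.93 to 2.41 in pairs 2 and 3. The part of RNA quality in this pattern was not tested, so it is not taken as a class of genes to compare at promoters. The share of all probe sets with this pattern is not given here. The 300 bases run from 250 before to 50 after the start, as RefSeq gives them on GRCh38.p14; the deposited values carry no coordinates. Capitals mark exact matches, on either strand, to the GC box GGGCGG, the short form of the cAMP response element TGACG and the E-box CACGTG. NPC1 lies at chr18:23586457-23586756 on the minus strand, SOAT1 at chr1:179293547-179293846 on the plus strand and ABCA1 at chr9:104928106-104928405 on the minus strand.
NPC1: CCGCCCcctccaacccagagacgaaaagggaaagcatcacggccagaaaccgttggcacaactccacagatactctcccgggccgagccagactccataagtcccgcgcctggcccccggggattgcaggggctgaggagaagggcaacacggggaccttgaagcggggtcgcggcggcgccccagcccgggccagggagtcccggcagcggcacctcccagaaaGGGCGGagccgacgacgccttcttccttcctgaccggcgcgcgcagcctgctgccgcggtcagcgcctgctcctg
SOAT1: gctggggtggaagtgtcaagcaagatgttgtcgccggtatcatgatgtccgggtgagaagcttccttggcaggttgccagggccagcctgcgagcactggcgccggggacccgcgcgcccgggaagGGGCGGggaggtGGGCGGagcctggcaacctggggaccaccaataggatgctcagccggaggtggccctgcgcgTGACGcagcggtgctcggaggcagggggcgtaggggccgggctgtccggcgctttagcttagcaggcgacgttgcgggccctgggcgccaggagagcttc
ABCA1: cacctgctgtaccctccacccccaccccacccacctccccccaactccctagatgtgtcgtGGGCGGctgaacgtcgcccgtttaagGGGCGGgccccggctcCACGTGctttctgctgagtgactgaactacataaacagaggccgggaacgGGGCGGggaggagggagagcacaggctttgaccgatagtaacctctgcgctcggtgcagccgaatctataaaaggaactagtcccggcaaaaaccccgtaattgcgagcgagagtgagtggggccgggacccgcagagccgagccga

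SOAT1 held TGACG at 50 to 46 bases before the start, a match that 24.6% of all 35116 promoters in the table have. ABCA1 held CACGTG at 147 to 142 bases before the start, which 7.26% of all promoters have. GGGCGG stood in all 3 and in 45.0% of all promoters. RefSeq windows were found for 7 of the 9 members, 13 in all, and not for SCARB1 and ABCG1. None of the 13 held the full cAMP response element TGACGTCA, the NR5A1 motif CAAGGTCA or the sterol regulatory element TCACNCCAC, where N is any base. These stand in 1.85%, 1.28% and 1.13% of all promoters. DR4 was searched in 1 exact form only, GGTCA, then NNNN, then AGGTCA. That form was in none of the 13 and in 0.0570% of all promoters. Other forms of DR4 were not searched, so a DR4 element with other letters may be present in these windows. The 2 LIPE windows included 1 with TGACG, at 221 to 217 bases before its start. TGACG is part of TGACGTCA, and a match of letters shows neither binding nor a cause.

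NPC1, NPC2 and LIPA, the lysosomal genes, were lower in pair 1 and higher in pairs 2 and 3. NPC1, the membrane protein through which cholesterol leaves lysosomes, gave 352, 862.6 and 913.1 on 8-Br-cAMP arrays 1 to 3, against 386.8, 269.2 and 291.4 on controls. The groups overlapped only through 8-Br-cAMP 1, which lay below control 1. This is a log2 difference of 1.06, or 2.09-fold, with a 95% interval of 0.15 to 1.98 and limma's adjusted p = 0.181 with the replicate block and 0.414 without it. Pair by pair, NPC1 stood at -0.14, 1.68 and 1.65 on the log2 scale. Without the number 1 arrays the difference was 1.66, or 3.17-fold (SE 0.12, adjusted p = 6.06e-05, limma), and leaving out 8-Br-cAMP 1 alone gave 1.51 (adjusted p = 0.0453). The second NPC1 probe set was below the filter and had 8.8, 108.1 and 98.3 after 8-Br-cAMP, against 9.4, 12.7 and 61.6 in controls.

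NPC2, the soluble lysosomal protein that hands cholesterol to NPC1, gave 2154.4, 1069.6 and 1073.8 after 8-Br-cAMP, against 3464, 756.2 and 676.7 in controls. In both groups number 1 was well above the other arrays, and the groups overlapped. NPC2 differed by 0.16 on the log2 scale, with an interval of -0.54 to 0.86 in the fit with the replicate block (limma's adjusted p = 0.793), and by -0.69, 0.50 and 0.67 in pairs 1, 2 and 3. With the number 1 arrays left out it was 0.58 (adjusted p = 0.00627, limma).

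LIPA, the lysosomal acid lipase, gave 328.8, 291.4 and 281.9 after 8-Br-cAMP, against 383.2, 156.4 and 159.4 in controls. The 8-Br-cAMP arrays lay close together, and control 1 was the highest of all 6. LIPA differed by 0.50 on the log2 scale (-0.18 to 1.18 and adjusted p = 0.367 in limma with the replicate block), made of -0.22, 0.90 and 0.82 in pairs 1, 2 and 3. Without the number 1 arrays it was 0.86, or 1.82-fold (adjusted p = 0.00472, limma).

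SOAT1, the sterol O-acyltransferase that esterifies free cholesterol, gave 822.8, 2971.8 and 2763.2 after 8-Br-cAMP, against 1022.9, 930 and 1539.9 in controls. 8-Br-cAMP 1 was the lowest of all 6 arrays, and the other 8-Br-cAMP arrays lay above every control. SOAT1 differed by 0.74 on the log2 scale (-0.13 to 1.60, adjusted p = 0.299 with the replicate block and 0.688 without it, limma), and by -0.31, 1.68 and 0.84 in pairs 1, 2 and 3. Without the number 1 arrays it was 1.26, or 2.39-fold (SE 0.21, adjusted p = 0.00315, limma).

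LIPE, the lipase that frees stored cholesterol and is a known substrate of the cAMP-dependent protein kinase, lay below the filter on both probe sets. The second by mean signal had 165.1, 33.9 and 27.5 after 8-Br-cAMP, against 36.6, 13.2 and 7.7 in controls, higher by 2.17, 1.36 and 1.84 on the log2 scale in pairs 1, 2 and 3. Only 8-Br-cAMP 1 was above the filter signal of 45.5, and the groups overlapped. The first had 99.3, 28.3 and 41.0 after 8-Br-cAMP, against 65.5, 113.8 and 6.3 in controls, with pair 2 opposite in sign to pairs 1 and 3. In a fit of all probe sets with no filter the second LIPE probe set had an adjusted p of 0.178 with the replicate block.

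**Figure D3:**
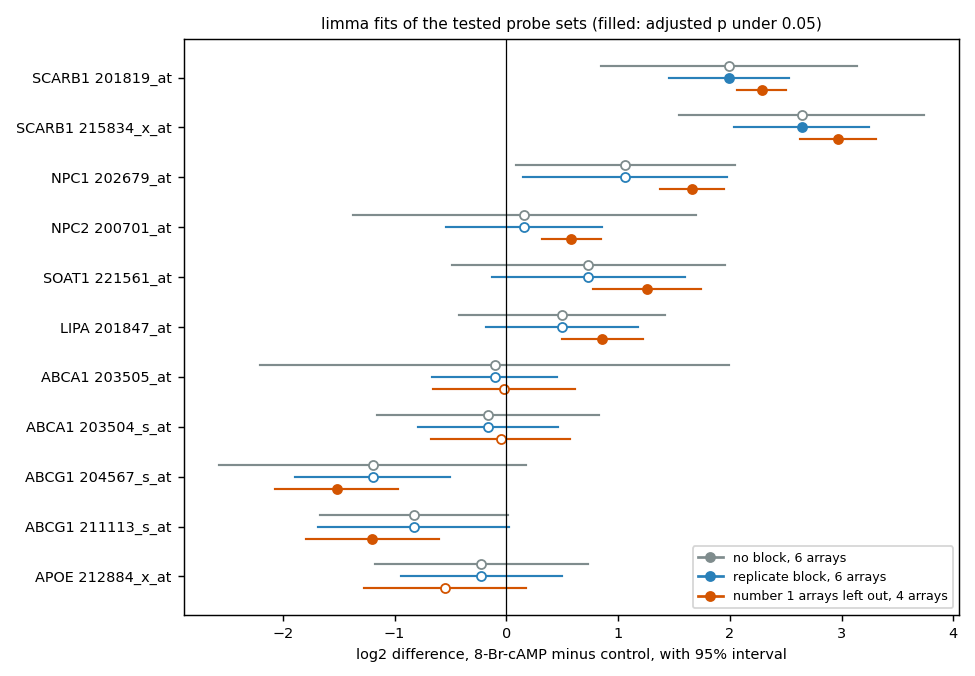
Log2 difference, 8-Br-cAMP minus control, with its 95% interval for the 11 tested probe sets in limma without a block, with the replicate block, and with both number 1 arrays left out. Filled points pass at an adjusted p under 0.05: none without the block, the 2 of SCARB1 with it, and 8 in the fit of 4 arrays.

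Of the efflux genes, ABCG1 was lower in all 3 pairs on both probe sets and ABCA1 differed little. All 3 pairs had the same sign in 44.1% of all probe sets. ABCG1, a transporter that works as a dimer and loads cholesterol onto high-density lipoprotein, gave on its first probe set signals of 64.2, 99.4 and 143.2 after 8-Br-cAMP, against 93.6, 288.7 and 404.3 in controls. Number 1 was the lowest array of each group, and control 1 lay below 2 of the 8-Br-cAMP arrays. The log2 difference was -1.19, with an interval of -1.89 to -0.50 and limma's adjusted p = 0.0805 with the replicate block, and 0.526 without it. Pairs 1, 2 and 3 stood at -0.54, -1.54 and -1.50. On its second probe set ABCG1 had 70.1, 65.2 and 55.4 after 8-Br-cAMP, against 74.6, 131 and 145.2 in controls, and these groups did not overlap, as in 12.5% of all probe sets on the lower side. There the log2 difference was -0.83 (adjusted p = 0.245 with the replicate block, limma). Without the number 1 arrays the log2 differences of the 2 probe sets were -1.52 and -1.20 (adjusted p = 0.00257 and 0.00979, limma).

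ABCA1, which passes cholesterol to lipid-poor apolipoprotein, gave on its first probe set 419.7, 89.1 and 78.9 after 8-Br-cAMP, against 504.9, 95.4 and 75.9 in controls. Both number 1 arrays were far above the rest, and within each number the groups lay close together. ABCA1 differed by -0.10 on the log2 scale (-0.66 to 0.45 and adjusted p = 0.840 in limma with the replicate block), and its sign turned with quantile normalization and a common median. With the number 1 arrays left out it was -0.02, with an interval of -0.66 to 0.62. On its second probe set ABCA1 had 144.8, 80 and 91.4 after 8-Br-cAMP, against 189.7, 79.8 and 98.1 in controls, a log2 difference of -0.16 (-0.79 to 0.47 with the block). These 3 intervals hold no change above 2-fold, but those of the main fit, without the block, do. There the first probe set had an SE of 0.89 and an interval of -2.20 to 2.00, and the second an interval of -1.15 to 0.83. A change above 2-fold is thus not excluded for ABCA1. A p that misses the threshold does not show that ABCA1 was equal in both groups. The third ABCA1 probe set stayed below the filter with 2.9 to 54.9 after 8-Br-cAMP and 5.5 to 14 in controls.

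APOE, the apolipoprotein that adrenal and other cells secrete with cholesterol, had probe sets that went in different directions. The first was the only 1 tested, and its suffix (x_at) marks probes that may also match other transcripts. The first gave 185.3, 112.1 and 70.1 after 8-Br-cAMP, against 137.9, 158.2 and 106.3 in controls, which overlap (log2 difference -0.22, interval -0.94 to 0.50, adjusted p = 0.714 with the replicate block, limma). Its sign turned with quantile normalization and a common median. Below the filter, the third had 10.3, 5.7 and 10.3 after 8-Br-cAMP, against 37.2, 62.8 and 56.3 in controls, without overlap and with a log2 difference of -2.59. The second, also below the filter, had 13.8, 67.3 and 57.7 after 8-Br-cAMP, against 3.0, 19.4 and 39.2 in controls. With no filter the third and the second probe set had an adjusted p of 0.109 and 0.318 with the replicate block (limma).

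Read across the 11 tested probe sets, 3 were higher and 8 lower in pair 1, and 7 were higher and 4 lower in pair 2 and likewise in pair 3. At least 2-fold higher were 2 in pair 1, 4 in pair 2 and 3 in pair 3, and 0, 2 and 2 were at least 2-fold lower. Of all probe sets 7.24%, 6.59% and 5.51% were at least 2-fold higher in pairs 1, 2 and 3, and 12.1%, 11.1% and 8.66% at least 2-fold lower. The count by sign alone is not given here for all probe sets. SCARB1, ABCA1 and ABCG1 each have 2 probe sets among the 11. The median log2 difference of the 8 tested genes, at the probe set with the highest mean, was 0.33 (-0.24, 0.70 and 0.74 in pairs 1, 2 and 3), and that of all 7927 genes was -0.14 (-0.03, -0.19 and -0.16). All members were read from the same 6 arrays, so they are not independent of each other.

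Genes around the same pathway were counted on 4 lists with 92 genes in all, of which 48 were tested, 24 had probe sets only below the filter and 20 are not analysed here. With the replicate block 1 of the 48 rose and 3 fell, against 1.73% and 1.96% of all 7927 genes (3.68% in either direction), and without the block 0 passed (5 at an unadjusted p under 0.05, limma). Without the number 1 arrays 10 of the 48 passed as higher and 8 as lower, against 12.8% and 20.5% of all genes (33.3% in either direction). Their median log2 difference was 0.06 over all 6 arrays. With the block, 0 list genes passed after scaling to a common median and 0 without the intensity trend.

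Among 10 tested genes of ester storage and lipid droplets, 1 rose and 0 fell with the block. LPL, the lipoprotein lipase that cleaves triglycerides of lipoproteins, gave 1956.8, 2334.2 and 2405.4 after 8-Br-cAMP, against 1080.6, 386.9 and 334 in controls. The groups did not overlap, and control 1 was the control nearest to the treated arrays. LPL differed by 2.10 on the log2 scale, or 4.29-fold (SE 0.39, adjusted p = 0.0453 with the replicate block and 0.161 without it, limma), and by 1.87 on its second probe set, which did not pass (adjusted p = 0.0748).

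Of 18 tested genes of the lysosome and of sterol transfer, 0 rose and 2 fell with the block, both oxysterol-binding protein relatives that carry lipids between membranes. OSBPL1A gave 163.2, 156.6 and 148.7 after 8-Br-cAMP, against 405.4, 489.3 and 673.4 in controls. It fell by 1.71 in log2 signal (limma, SE 0.24 and adjusted p = 0.0246 with the replicate block, 0.0948 without it). The groups stood well apart, and the second OSBPL1A probe set fell by 2.04 (adjusted p = 0.0115). OSBPL9 gave 401, 550.2 and 520.6 after 8-Br-cAMP, against 805.6, 1260.3 and 1211.9 in controls. It fell by 1.14 in log2 signal (limma, SE 0.19 and adjusted p = 0.0335 with the replicate block, 0.200 without it). Of the lipoprotein receptor list 5 genes were tested and 0 passed with the block.

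Of 15 tested efflux and liver X receptor genes, 0 rose and 1 fell with the block. ABCA5, a relative of ABCA1, gave 186.5, 184.2 and 182.3 after 8-Br-cAMP, against 436.8, 374.2 and 470.8 in controls. It fell by 1.21 in log2 signal (limma, SE 0.21 and adjusted p = 0.0395 with the replicate block, 0.127 without it). The groups lay clearly apart and the number 1 arrays were not set off from the others.

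**Figure D4:**
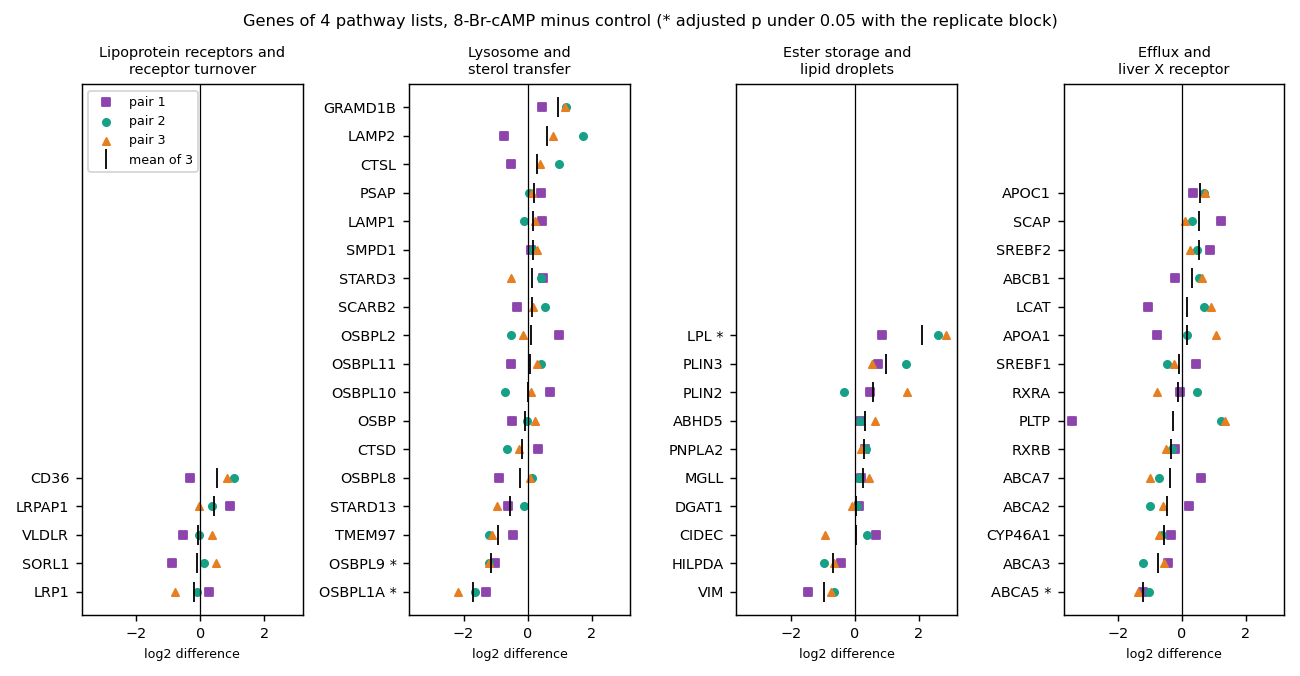
Log2 difference in each same-numbered pair, with the mean of 3 as a bar, for the 48 tested genes of 4 pathway lists. Stars mark the 4 genes that pass with the replicate block, LPL on the right of 0 and OSBPL1A, OSBPL9 and ABCA5 on the left.

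For likeness, SCARB1 was taken at its first probe set, and other genes at the probe set with the highest mean. The 5 tested genes whose log2 signal followed that SCARB1 probe set most closely over the 6 arrays were CTSA (Pearson r = 0.9996), CYTH1 (0.9986), KCNK3 (0.9980), MT2A (0.9979) and GLRX (0.9966). CTSA encodes the lysosomal protective protein cathepsin A, CYTH1 an exchange factor of ARF proteins, KCNK3 a potassium channel, MT2A a metallothionein and GLRX a glutaredoxin. CTSA gave 3709.5, 2530.4 and 2577.3 after 8-Br-cAMP, against 1976.5, 859.1 and 900.9 in controls. In all 5, as on the first SCARB1 probe set, 8-Br-cAMP 1 was highest, 8-Br-cAMP 2 and 3 came next and control 1 followed. Controls 2 and 3 were lowest, while the order of arrays 2 and 3 within a group varied between genes. On the second SCARB1 probe set number 1 was instead the lowest array of each group, so this order is not that of the gene as a whole. GLRX had another tested probe set, with 473.1, 530.7 and 519.6 after 8-Br-cAMP, against 316.1, 286.4 and 272.9 in controls. There 8-Br-cAMP 1 was the lowest treated array, and the log2 difference of 0.80 did not pass (adjusted p = 0.0908 with the replicate block, limma). The KCNK3 log2 difference, 2.18, was the closest of the 5 to that of the first SCARB1 probe set. These correlations rest on 6 arrays, 2 of which stand apart, and describe likeness only.

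Among the members themselves, LIPA was the most like the first SCARB1 probe set, at r = 0.86 and rank 327 of 7926 genes. NPC1 followed at 0.60, NPC2 at 0.60, ABCA1 at 0.46 and SOAT1 at 0.20. APOE stood at -0.02 and ABCG1 at -0.92.

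**Figure D5:**
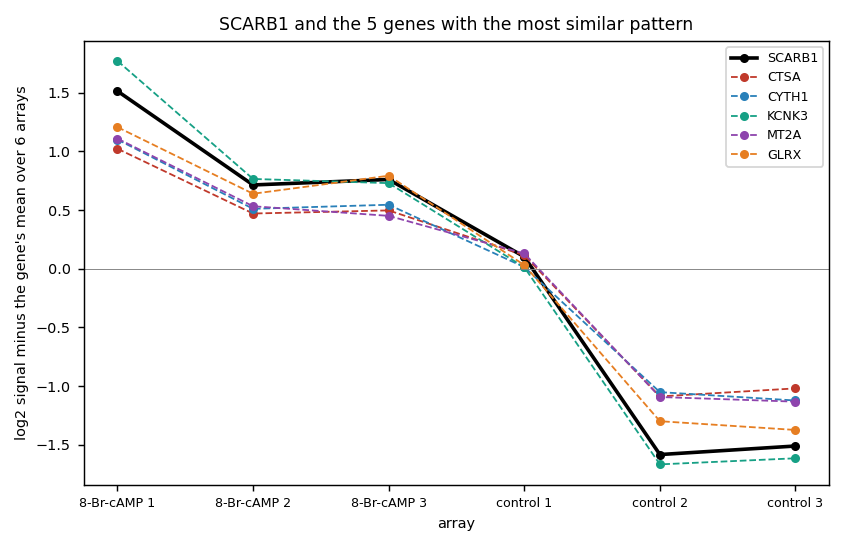
Log2 signal minus each gene's own mean over the 6 arrays for the first SCARB1 probe set (solid black) and the 5 genes most like it (dashed). The 8-Br-cAMP arrays are on the left and controls on the right. Lines only join the points of a gene, and control 1 lies near 0 for every gene shown.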

How the data were processed

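RNA of 6 samples was measured on Affymetrix arrays for human transcripts. The deposited table holds linear signal intensities, 1 per probe set and array, made by the authors with GCOS 1.3, per the submitters' processing notes. Detection calls play no part. The 2% trimmed means of all columns lay between 249.996 and 250.155, so intensities were used as deposited. Such a scaling cannot show a change shared by most transcripts. After 62 array controls were left out, 22215 of 22277 probe sets were analysed, 19064 of them with 1 gene symbol in the platform annotation, 1043 with several and 2108 not listed. Intensities were taken to log2, 13329 probe sets were kept, and the contrast was fitted over all of them with limma 3.58.1 in R 4.3.3 (lmFit, eBayes with an intensity trend, two-sided, Benjamini-Hochberg adjustment, threshold 0.05, 95% intervals). The number of arrays limits the precision. The fit set as main has no block, and the block on the sample number is its alternative. Arrays that share a number deviated together from their groups (r = 0.603, 0.378 and 0.538, each over 0.1), and by that rule the numbers were used as pairs. Across numbers, 8-Br-cAMP 2 with control 3 gave 0.547 and 8-Br-cAMP 3 with control 2 gave 0.312, while number 1 with 2 or 3 gave -0.596 to -0.379. The values therefore separate number 1 from 2 and 3 and do not tell 2 from 3. The labels do not state a pairing, and each call with the block rests on it. Members and lists were chosen with earlier results of these data known. Named genes are all members, the list genes that pass without or with the block, and the 5 most like SCARB1. TMEM97 and VIM were named after their values were seen. Fits were also run on simulated data in which arrays of the same number shared an effect. Such a run takes the pairing as given and cannot show that the numbers are pairs.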

Additional observations from a re-analysis of the deposited data

How the results depend on the processing

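Without a block, 0 probe sets passed as deposited, with no filter and without the intensity trend, 17 with quantile normalization, 17 with a common median, 18 with the filter at the 60th percentile and 28 with a pseudocount of 16. The design text's own selection (at least 2-fold, unadjusted p under 0.05) held 609. With the replicate block the counts were 428, and 337, 142, 406, 440, 548 and 81 with quantile normalization, a common median, no filter, the stricter filter, the pseudocount and no trend. The split of higher and lower calls was 207 and 221, but 103 and 39 with a common median, which moved the median log2 difference of all probe sets from -0.13 to 0.09. With 1 array left out the count ran from 0 to 285 (0 to 2 for the members, 0 to 1 for the lists), 58 without control 1 and 285 without 8-Br-cAMP 1, and with both left out 4103 passed.

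Of the member probe sets 2 passed in 6 of 7 fits with the replicate block, both of SCARB1, and 1 without the trend, where the first had an adjusted p of 0.0550. The design text's selection held the same 2. With both number 1 arrays left out 8 passed. Of the list genes 4 passed with the block, with no filter, the stricter filter or the pseudocount, and also 4 with quantile normalization (OSBPL1A, OSBPL9, TMEM97 and VIM). None passed with a common median or without the trend, and 18 passed without the number 1 arrays. LPL and ABCA5 thus passed 4, and OSBPL1A and OSBPL9 5, of 7 fits with the block.

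Signs turned for 3 members that pass in no 6-array fit. ABCA1 was at 0.14 after quantile normalization and 0.12 with a common median, and ran from -0.88 to 0.75 with 1 array left out. APOE was at 0.015 and 0.0018, and ran from -0.58 to 0.12. NPC2 ran from -0.26 to 0.92. The cause was not tested. Signals near the filter level limit LIPE and APOE.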
